A study of Mus musculus with 12 samples.

Results

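The expression of Trp53, the mouse gene of p53, and of 9 genes tied to it was described in 12 lung tumors whose tumor-initiating vector also deletes Trp53. The genes were taken by name from a list of p53 pathway members and found by their symbol in the deposited count table. They were Trp53, Cdkn1a, Mdm2, Cdkn2a, Ccng1, Eda2r, Phlda3, Zmat3, Bax and Trp53inp1, that is, 10 of the 39017 genes in the table. All 10 passed the filter on low counts, which kept 16527 genes.

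Poly-adenylated RNA was sequenced from the cells left after removal of immune cells (CD45-positive) from 12 tumors of 9 mice, in 4 groups of 3. All mice were C57BL/6 with a Cre-activated oncogene allele, floxed p53 (p53Fl/Fl) and CCSP-rtTA, and all received 6000 units of Lenti.TRE-PPARaD13_PGK-Cre in the airways. KPG1 mice carried in addition Glut1Fl/Fl, floxed alleles of the glucose transporter gene Slc2a1. The paper states that its control mice were wild-type for Slc2a1 or heterozygous for the floxed allele. KP_PPARaDN and KPG1_PPARaDN mice ate a doxycycline diet (625 mg per kg) for 15 days to induce PPARaD13, a dominant negative PPARα, while KP and KPG1 mice ate a regular diet, and tumors were taken 26 weeks after initiation. CCSP is the promoter of an airway secretory cell gene, so induction is limited to cells in which that promoter is active, and the diet differs between groups together with the induction. The 3 tumors came from 2 mice in KP, KPG1 and KPG1_PPARaDN and from 3 mice in KP_PPARaDN. The labels give 3 females for KP, 3 males for KPG1, 1 female and 2 males for KP_PPARaDN, and 2 females and 1 male for KPG1_PPARaDN. Sex and genotype therefore cannot be told apart in KPG1 against KP without the other groups. The share of males also differs between the groups in every other comparison of 2 groups. Because some tumors share a mouse, p-values measure the spread between these tumors and not only between animals.

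No group with intact Trp53 was analysed here, so the size of any loss of Trp53 or of its targets cannot be given. The floxed Trp53 allele is known to lose exons 2 to 10 after Cre, and 681 of the 1772 bases of the 11-exon transcript Trp53-201 (38.4%) lie outside those exons. Reads from the remaining exons, and from cells that Cre did not reach, are counted with the gene, so the gene-level count does not check the deletion. For Slc2a1, depth-scaled counts (CPM) were 30.1 to 63.9 in the tumors labelled KPG1 and 35.2 to 57.6 in KP, and 23.7 to 54.5 in those labelled KPG1_PPARaDN against 108 to 152 in KP_PPARaDN, so the gene-level count separated the genotypes under doxycycline only. The summed CPM of 6 epithelial markers (such as Epcam, Krt8 and Sftpc) was 9347 to 32965 per tumor, and that of 6 leukocyte markers was 11.8 to 59.8. Endothelial and fibroblast markers were present in every tumor, at 77.8 to 470 summed CPM for 5 genes and 98.3 to 569 for 6 genes. In bulk RNA, fewer cells of a type and less RNA per cell cannot be told apart.

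p53 is a transcription factor that is stabilised by DNA damage and by oncogene activity. It binds DNA as a tetramer at paired half-sites and turns on genes that stop the cell cycle, start apoptosis or feed back on p53 itself. In mouse models of lung adenocarcinoma, its loss is known to permit progression to higher-grade disease. Cdkn1a (p21), Ccng1, Eda2r, Phlda3, Zmat3, Bax, Trp53inp1 and Mdm2 are known targets, all of which also have transcription that does not need p53. Cdkn2a lies upstream: its p19Arf product restrains Mdm2, while its p16Ink4a product inhibits the kinases Cdk4 and Cdk6. Both products share exons and were counted together, and Cdkn2a is not a classical p53 target.

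The known binding motif of p53 was searched in the promoter windows of these genes, to show which of them carry it next to the start site. The windows are those of RefSeq on GRCm38.p6, from 250 bases before to 50 bases after each start. Of the 10 genes, 8 had at least 1 window, with 10 windows in all, and none was listed for Zmat3 and Trp53inp1. A pair of half-sites of the p53 consensus (10 bases each, at most 13 bases between them, at most 1 mismatch over the pair, both strands, overlapping pairs allowed) was in 3 of the 10 windows, those of Bax and Ccng1 and the upstream start of Cdkn1a. Of the 32851 RefSeq windows searched, which leave out 1 chromosome that holds none of the 10 genes, 1.09% held such a pair. A single half-site without mismatch was in 5 of the 10 windows (Bax, Mdm2, Ccng1, Trp53 and Cdkn1a) and in 8.36% of the windows searched. The 3 stretches are shown 5′ to 3′ on the gene's strand, with the bases of the half-sites in capitals. In Cdkn1a, 2 pairs share the middle half-site, and the pair with the wider gap has no mismatch. A match describes the letters only, and binding was not measured here.
Cdkn1a (chr17:29090876-29090968, + strand, positions -103 to -11 from the start): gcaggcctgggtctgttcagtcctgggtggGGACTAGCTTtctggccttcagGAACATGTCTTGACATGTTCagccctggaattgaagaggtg
Bax (chr7:45467060-45467140, - strand, positions -242 to -162): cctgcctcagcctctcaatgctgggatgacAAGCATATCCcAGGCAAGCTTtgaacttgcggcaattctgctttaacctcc
Ccng1 (chr11:40755432-40755511, - strand, positions -225 to -146): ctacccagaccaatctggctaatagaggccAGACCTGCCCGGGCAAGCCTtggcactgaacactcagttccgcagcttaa

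Trp53 itself was counted in every tumor, at 149 to 383 reads. The gene (ENSMUSG00000059552) lies at chr11:69580359-69591873 on the + strand of mm10. Its level, scaled by trimmed mean of M values (TMM), was 5.85, 8.39 and 9.74 CPM in the KP tumors and 5.10, 7.03 and 12.8 CPM in KP_PPARaDN. It was 7.36, 6.88 and 8.79 CPM in KPG1 and 5.59, 7.46 and 7.41 CPM in KPG1_PPARaDN. All 4 groups overlapped, and KP_PPARaDN held both the lowest and the highest tumor, 2.51-fold apart. Group means were 7.995 ± 1.97 CPM in KP, 8.32 ± 4.02 in KP_PPARaDN, 7.67 ± 0.992 in KPG1 and 6.82 ± 1.06 in KPG1_PPARaDN (SD, n = 3 each). Its relatives were close to absent, with Trp63 at 0.068 to 0.89 CPM and Trp73 at 0.033 to 0.989 CPM over the 12 tumors.

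The 10 genes were expressed at very unequal levels. Per kilobase of exon (RPKM, from TMM-scaled counts and the union of a gene's exons), the median over the 12 tumors was highest for Cdkn2a at 53.6, followed by Cdkn1a at 25.3, Bax at 19.0, Mdm2 at 13.95, Ccng1 at 10.3 and Trp53inp1 at 7.40. Zmat3 (2.20 RPKM), Trp53 (1.83) and Phlda3 (1.399) formed a lower set, and Eda2r was lowest at 0.108. The ranges of neighbours in this order overlapped except between Trp53inp1 and Zmat3 and between Phlda3 and Eda2r. Bax was above Mdm2 in 12 of 12 tumors, Cdkn2a above Cdkn1a in 10, and Zmat3 above Trp53 in 9. With the longest coding transcript as the length, Trp53 (3.96 RPKM) stood above Zmat3 (3.22), and the other positions stayed the same. Both lengths of Trp53 include exons 2 to 10, which the floxed allele is known to lose. Its place in this order is therefore uncertain, because the share of reads from undeleted transcript was not measured.

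**Figure D1:**
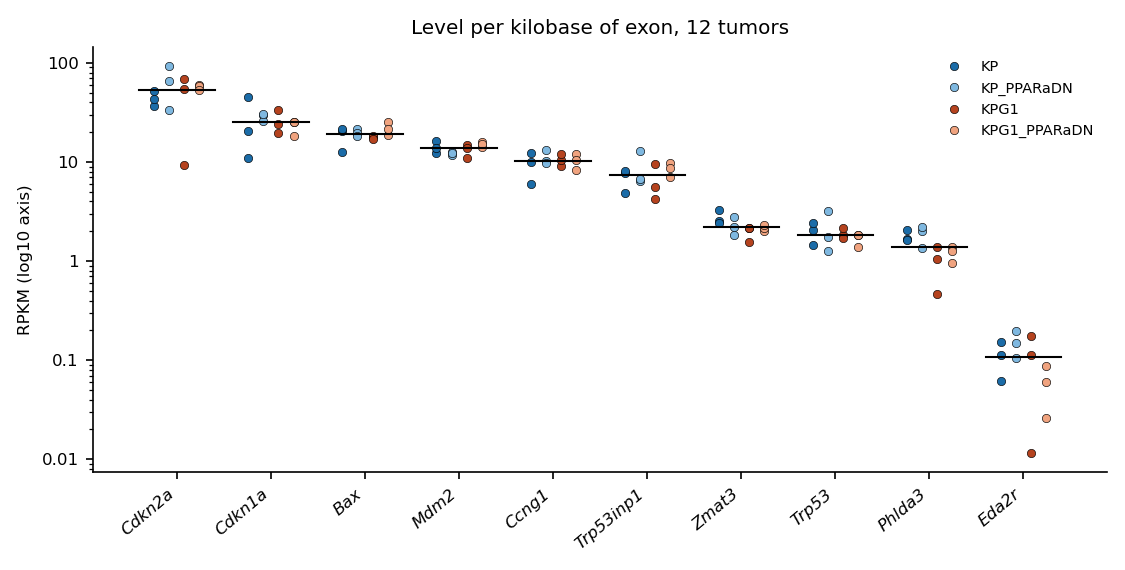
Level of each gene per kilobase of exon in RPKM on a log10 axis. Each point is 1 of 12 tumors, coloured by group, and the line is the median, which runs from 53.6 for Cdkn2a to 0.108 for Eda2r. The length used for Trp53 includes its floxed exons, so its place in the order is uncertain.

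The genes also differed in how much they varied between tumors. Over all 12 tumors, the coefficient of variation of CPM was 12.2% for Mdm2 and 15.9% for Bax, and 2.0% and 9.2% of the tested genes varied less than these. It was 55.7% for Eda2r and 39.5% for Cdkn2a, beside a median of 31.4% over all tested genes. Eda2r rested on 2 to 36 reads per tumor, so counting error alone is large for it.

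Mdm2, the ubiquitin ligase that marks p53 for degradation and is itself a p53 target, was the steadiest of the 10. It measured 63.3, 83.6 and 71.0 CPM in KP, 64.8, 60.4 and 63.1 in KP_PPARaDN, 75.5, 55.7 and 70.9 in KPG1 and 80.1, 71.7 and 77.7 in KPG1_PPARaDN. The 3 KPG1_PPARaDN tumors lay above the 3 KP_PPARaDN tumors, as was so for 10.3% of all genes tested, and the other groups overlapped.

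Cdkn1a, the inhibitor of cyclin-dependent kinases through which p53 stops the cell cycle, was spread most widely in KP, at 161, 39.4 and 73.8 CPM. It was 106, 92.4 and 109 CPM in KP_PPARaDN, 86.2, 118 and 70.1 in KPG1 and 89.8, 64.9 and 90.2 in KPG1_PPARaDN. Its highest and lowest tumors, 4.07-fold apart, were both KP tumors of the same mouse. A transcript on the opposite strand shares 273 bases of its exons and is not among the genes counted, and the library kit keeps strand.

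Cdkn2a had one tumor far below the rest. It measured 43.2, 61.4 and 50.8 CPM in KP, 108, 77.1 and 38.8 in KP_PPARaDN, 11.04, 63.6 and 81.0 in KPG1 and 70.7, 68.1 and 62.1 in KPG1_PPARaDN. The tumor at 11.04 CPM (276 reads) is replicate 1 of KPG1, and the other tumor of that mouse is at 63.6 CPM.

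Among the genes of apoptosis and stress signalling, Bax, the pore-forming protein of the mitochondrial outer membrane, was 19.9, 32.1 and 34.2 CPM in KP, 33.9, 30.6 and 29.0 in KP_PPARaDN, 28.5, 28.6 and 26.8 in KPG1 and 39.6, 29.2 and 34.2 in KPG1_PPARaDN. Another gene model on the same strand, not among the genes counted, shares 192 of the 1576 exonic bases of Bax. Trp53inp1, a nuclear stress protein that also acts in autophagy, was 31.7, 49.8 and 52.8 CPM in KP, 41.6, 43.7 and 83.3 in KP_PPARaDN, 62.1, 27.1 and 35.8 in KPG1 and 46.0, 62.8 and 56.4 in KPG1_PPARaDN. Its highest tumor, at 83.3 CPM, is the one in which Trp53 was highest. Eda2r, a receptor of the tumor necrosis factor family, was 0.89, 0.364 and 0.661 CPM in KP, 0.617, 1.16 and 0.871 in KP_PPARaDN, 1.04, 0.0688 and 0.661 in KPG1 and 0.511, 0.352 and 0.154 in KPG1_PPARaDN. The 3 KPG1_PPARaDN values lay below the 3 KP_PPARaDN values, on 5 to 15 reads against 18 to 36. Of all genes tested, 7.25% were lower without overlap in the same way.

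Ccng1 (cyclin G1), which recruits a phosphatase to Mdm2, was 35.04, 20.8 and 43.4 CPM in KP, 35.8, 34.6 and 46.2 in KP_PPARaDN, 32.1, 36.8 and 42.7 in KPG1 and 28.9, 42.1 and 36.8 in KPG1_PPARaDN. All groups overlapped. Zmat3, a zinc finger RNA-binding protein that regulates splicing, was 29.3, 28.0 and 37.8 CPM in KP, 20.8, 25.3 and 31.7 in KP_PPARaDN, 17.7, 24.9 and 24.8 in KPG1 and 23.0, 24.9 and 26.4 in KPG1_PPARaDN. Phlda3, a pleckstrin homology protein that competes with Akt at membranes, was 2.63, 2.55 and 3.20 CPM in KP, 2.09, 3.16 and 3.48 in KP_PPARaDN, 1.64, 0.722 and 2.18 in KPG1 and 2.18, 1.98 and 1.51 in KPG1_PPARaDN. For both Zmat3 and Phlda3 every KPG1 tumor lay below every KP tumor, as was so for 5.13% of all genes tested.

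**Figure D2:**
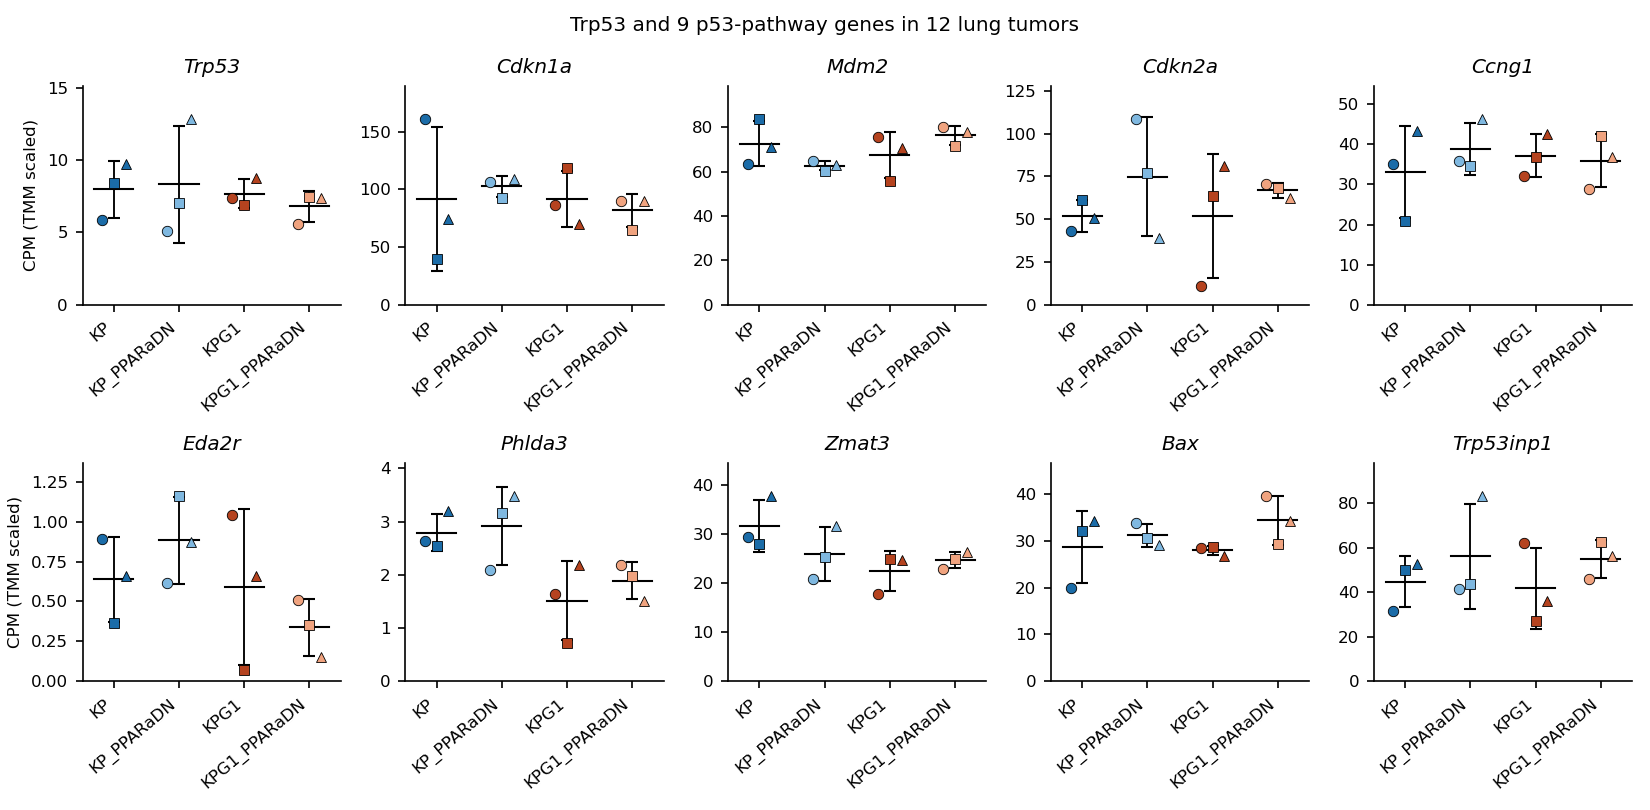
CPM of each gene (linear axes from 0, TMM scaled) in each of the 12 tumors by group, with circles, squares and triangles for replicates 1, 2 and 3, and with the group mean and SD (n = 3) as lines. The groups overlap for most genes, and the KPG1 points of Zmat3 and Phlda3 lie below all KP points, as was so for 5.13% of all genes tested.

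None of the 10 genes passed an adjusted p of 0.05 in any of the comparisons below. With doxycycline in KP mice (KP_PPARaDN against KP), which asks whether induction of the dominant negative PPARα in tumors with Glut1 shifts the pathway, 8 of the 10 log2 fold changes were above 0. They ran from -0.29 for Zmat3 to 0.53 for Cdkn2a, with a median of 0.14 beside -0.01 for all genes tested. The smallest adjusted p was 0.677 (edgeR's quasi-likelihood test, Benjamini-Hochberg over all genes tested), and 1 of the 16527 genes tested, or 0.00605%, was called. The change of Trp53 was 0.06 ± 0.36 (SE), with a 95% interval of -0.73 to 0.85.

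With doxycycline in the mice labelled KPG1 (KPG1_PPARaDN against KPG1), 6 of 10 changes were above 0, with a median of 0.16 beside 0.02 for all genes. The range was -0.79 for Eda2r to 0.40 for Trp53inp1, and the smallest adjusted p was 0.663 by edgeR (0.00605% of genes called). Bax was higher without overlap in the 3 KPG1_PPARaDN tumors, at 0.30 ± 0.22, as were 11.2% of all genes tested. Trp53 changed by -0.17 ± 0.36, with an interval of -0.96 to 0.62.

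In KPG1 against KP, the groups differ in the Glut1 alleles without doxycycline, and also in sex (males against females). There Phlda3 measured -0.88 ± 0.43 on the log2 scale (interval -1.83 to 0.066) and Zmat3 -0.50 ± 0.23 (interval -0.99 to -0.001). These 2 genes were the only ones of the 10 whose groups did not overlap, both lower in KPG1, beside 5.13% of all genes lower without overlap. Their unadjusted p was 0.0653 for Phlda3 and 0.0496 for Zmat3, 6.23% of all genes had one below 0.05, and by edgeR the adjusted p was 0.787 for both (0.0363% of genes called). With sex as a covariate the estimates were -0.84 for Phlda3 and -0.53 for Zmat3. That sex term rests on the doxycycline groups, the only ones with tumors of both sexes. Without KPG1 replicate 2, the Phlda3 value was -0.53. The median over the 10 genes was -0.08 beside -0.03 for all genes, 7 of 10 were below 0, and Trp53 changed by -0.06 ± 0.36.

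In KPG1_PPARaDN against KP_PPARaDN, the same genotypes under doxycycline, 8 of 10 changes were below 0, with a median of -0.14 beside 0.01 for all genes. Eda2r had the largest, at -1.38 ± 0.77 (interval -3.06 to 0.31), and Phlda3 measured -0.62 ± 0.43, while Zmat3 was at -0.07 ± 0.22 with overlapping groups. Eda2r and Cdkn1a (-0.33 ± 0.40) were lower without overlap, beside 7.25% of all genes, and Mdm2 (0.28 ± 0.17) was higher without overlap, beside 10.3%. The smallest adjusted p was 0.566 by edgeR (0.0303% of genes called). Trp53 changed by -0.29 ± 0.36, with an interval of -1.08 to 0.50.

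The diet effect was also compared between genotypes. For the 10 genes, the difference of the 2 diet effects (KPG1 minus KP) ran from -1.26 ± 1.08 for Eda2r to 0.43 ± 0.32 for Zmat3, and Mdm2 had the smallest adjusted p, 0.524 by edgeR, at 0.39 ± 0.24. Over all genes 0% passed by edgeR, 1952 genes (11.8%) had an unadjusted p below 0.05, and DESeq2 called 286. Sex is unbalanced in this difference, with 0 males in KP, 2 in KP_PPARaDN, 3 in KPG1 and 1 in KPG1_PPARaDN. With sex as a covariate, 861 genes had an unadjusted p below 0.05 by edgeR. Eda2r lies on the X chromosome. Averaged over both diets, an average added after seeing the data, Phlda3 measured -0.75 ± 0.30 in the 6 Glut1Fl/Fl tumors against the other 6. Its unadjusted p was 0.0305 (4.53% of all genes had one below 0.05) and its adjusted p was 0.976 by edgeR (0.0484% of genes called). The 6 tumors ranged from 0.722 to 2.18 CPM against 2.09 to 3.48. Averaged over both genotypes, also added later, doxycycline gave a smallest adjusted p of 0.674 for the 10 genes, that of Trp53inp1 at 0.36 ± 0.25 (0.0182% of genes called by edgeR).

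**Figure D3:**
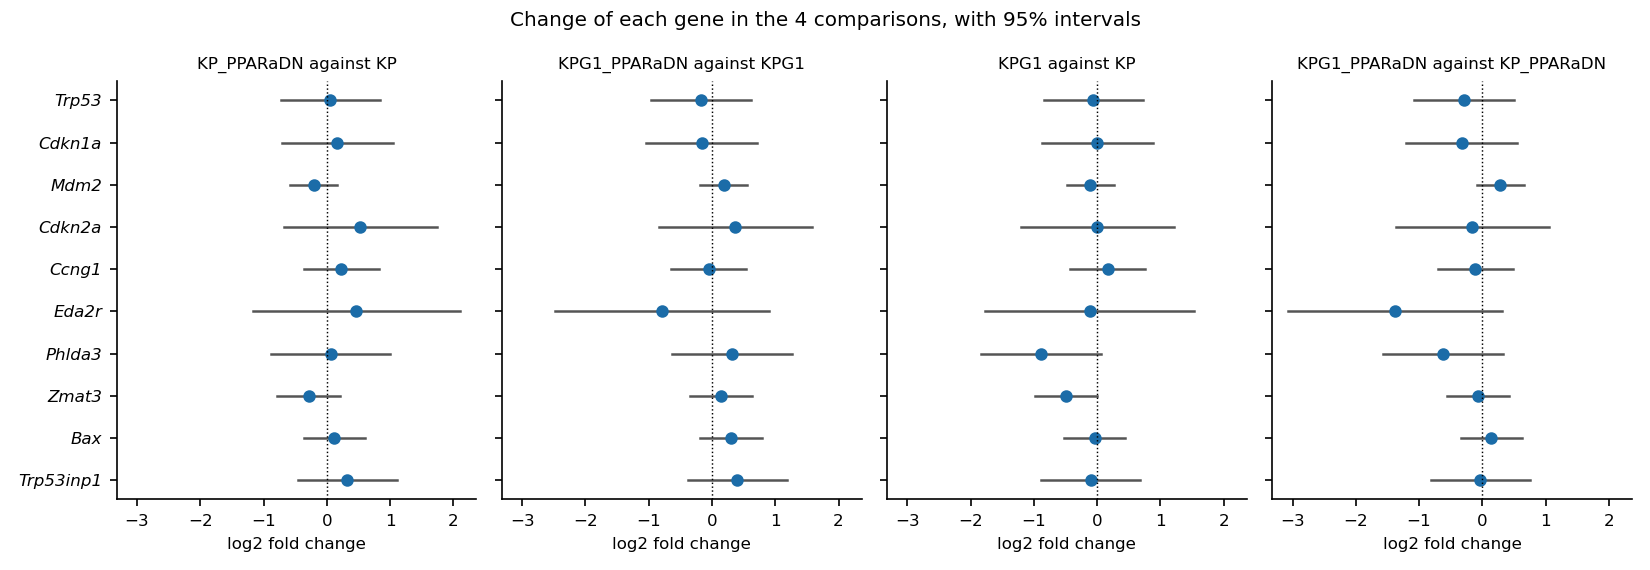
Log2 fold change of each gene in the 4 comparisons of groups, with 95% intervals from edgeR's quasi-likelihood fit over all 12 tumors (n = 3 per group). Intervals are not adjusted for the number of genes. Every interval but that of Zmat3 in KPG1 against KP (-0.99 to -0.001) includes 0, the narrowest are those of Mdm2, and the widest are those of Eda2r.

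Trp53 was also set against the other 9 genes across the 12 tumors, to see whether target levels followed the remaining Trp53 count. Both Zmat3 (Pearson r = 0.572, permutation p = 0.0519, Spearman rho = 0.538, p = 0.0729) and Trp53inp1 (r = 0.567, permutation p = 0.0526, rho = 0.559, p = 0.062) were positive. Adjusted over the 9 pairs by the permutation test, p was 0.237 for each r and 0.219 for each rho, and no pair passed. Without the 2 tumors farthest from the median of Trp53, which are KP_PPARaDN replicates 1 and 3, r was 0.396 for Zmat3 and 0.305 for Trp53inp1. Leaving out the ends of the Trp53 range can lower r by itself, so this does not show how far either relation rests on those tumors. Within groups (group means removed, added after seeing the data), r was 0.722 for Zmat3 and 0.729 for Trp53inp1. The exact within-group permutation p was 0.0455 and 0.0262, and 0.205 for both after adjustment. Without the same 2 tumors the within-group r was 0.478 for Zmat3 and 0.588 for Trp53inp1. Of the genes whose promoter window held a paired p53 match, r was -0.324 for Cdkn1a, -0.039 for Bax and 0.372 for Ccng1, with adjusted permutation p of 0.539, 0.921 and 0.539. Without KP_PPARaDN replicates 1 and 3, r was -0.639 for Cdkn1a, 0.162 for Bax and 0.236 for Ccng1. The rho of Cdkn1a was -0.476 (permutation p = 0.121, adjusted 0.272). The rho of Ccng1, 0.601, was the highest of the 9 (permutation p = 0.0422, adjusted 0.219). With each of the 12 tumors left out in turn, r of Ccng1 ran from 0.167 to 0.783. The highest of these values, without KP replicate 2, had an adjusted permutation p of 0.0355. That p was adjusted over the 9 pairs and not for the choice of 1 tumor out of 12. For Mdm2, r was 0.032.

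The summed CPM of 5 endothelial markers was highest in KP_PPARaDN replicate 3 (470) and lowest in KP_PPARaDN replicate 1 (77.8), the tumors in which Trp53 was highest and lowest. Pecam1 alone was at 158 and 25.8 CPM there. Over the 12 tumors, r of Trp53 with the endothelial sum was 0.638 (permutation p = 0.0244, adjusted over 6 lists 0.146, rho = 0.497, p = 0.104), and 0.18 without those 2 tumors. Within groups it was 0.612, with an exact permutation p of 0.188. Values for the other lists were 0.35 for epithelial markers, 0.247 for leukocyte, 0.076 for fibroblast and -0.266 for erythroid markers, and -0.378 for proliferation genes, none with an adjusted permutation p below 0.05. Sftpc, at 5538 to 29937 CPM, was the largest part of the epithelial sum in every tumor, and Epcam alone had r = -0.195. Without the same 2 tumors the sign turned for proliferation genes (0.381) and leukocyte markers (-0.185). The part of these cells in the Trp53 count was not tested.

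The 5 genes most like Trp53 by Pearson r of log2 CPM over the 12 tumors, among 14107 genes with a mean of at least 1 CPM, were Gpr107 (0.875), Pde2a (0.867), N28178 (0.862), Vmac (0.855) and Ehd3 (0.848). Of the other genes described here, Eda2r was below that minimum, and the highest ranks were 633 for Zmat3 and 649 for Trp53inp1. The 5 endothelial markers ranked 175 (Kdr), 298 (Cdh5), 394 (Pecam1), 792 (Cldn5) and 1022 (Tek). Among the 10 genes themselves, r was above 0 in 26 of 45 pairs, with a median of 0.043. It was highest for Eda2r with Phlda3 (0.783), both of low count, and lowest for Cdkn1a with Mdm2 (-0.683), 2 known targets. These pairs are given as a description, and the 12 points share mice and cell content.

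**Figure D4:**
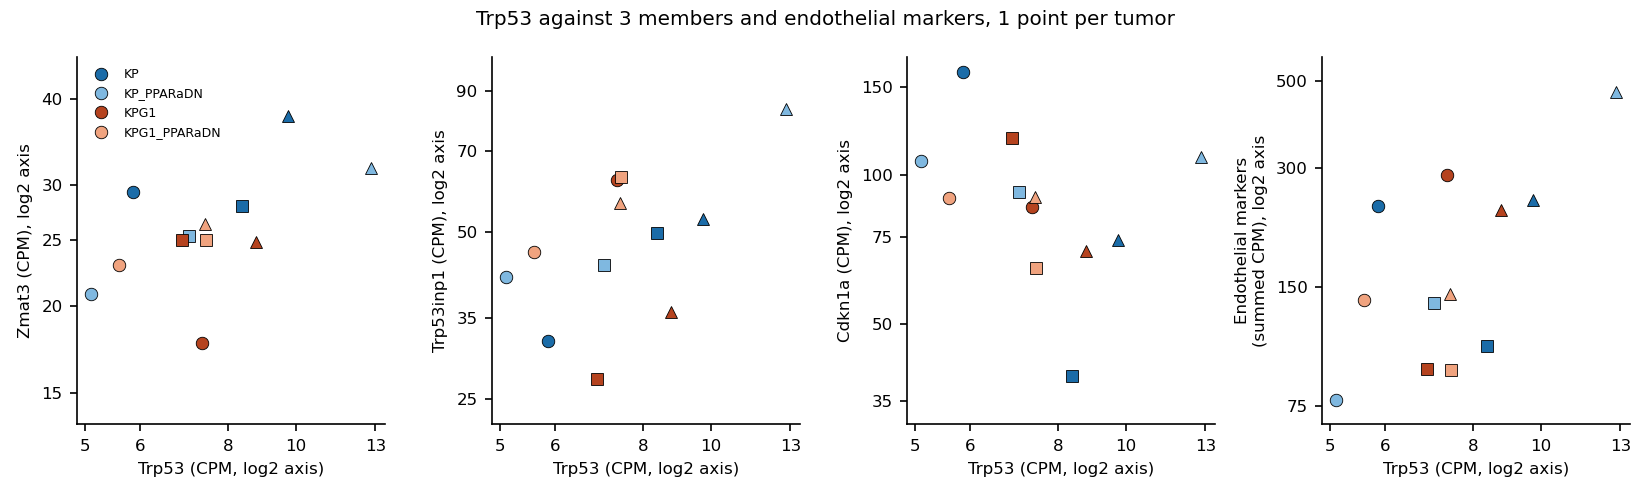
Zmat3, Trp53inp1, Cdkn1a and the summed CPM of 5 endothelial markers against Trp53, all as CPM on log2 axes, 1 point per tumor, with circles, squares and triangles for replicates 1, 2 and 3. KP_PPARaDN replicates 1 and 3 lie at the ends of the Trp53 axis, at 5.10 and 12.8 CPM.

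Other p53 regulators and targets, taken from lists of known pathway genes, were called in none of the comparisons of 2 groups or of the diet effects by edgeR either. Of the 12 regulators tested, 9 were below 0 in KP_PPARaDN against KP, with a median of -0.21. Mdm4, the partner of Mdm2 that inhibits p53, was 140, 125 and 105 CPM in KP and 103, 66.1 and 78.2 in KP_PPARaDN (-0.58 ± 0.20), and Usp7, a deubiquitinase of Mdm2 and p53, was highest at 0.35 ± 0.21. In KPG1_PPARaDN against KPG1, Rchy1, a ubiquitin ligase that acts on p53, was 52.0, 57.2 and 64.6 CPM against 104, 89.1 and 90.5. Its change was -0.71 ± 0.18, with an unadjusted p of 0.00182 and an adjusted p of 0.42 by edgeR. DESeq2, which called 197 of 16527 genes there where edgeR called 1, gave an adjusted p of 0.0194. At the other end Usp28, another deubiquitinase, was at 0.65 ± 0.23. The extremes were the p53 kinase Hipk2 (-0.44 ± 0.32) and Rchy1 (0.36 ± 0.18) in KPG1 against KP, and Usp7 (-0.53 ± 0.21) and the DNA damage kinase Atm (0.50 ± 0.27) in KPG1_PPARaDN against KP_PPARaDN.

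Of the 9 further arrest and feedback targets tested, Sfn (14-3-3σ, which holds cells before mitosis) had the largest differences. It was 58.3, 27.1 and 70.5 CPM in KP and 95.7, 66.8 and 97.4 in KP_PPARaDN, but 19.5, 34.1 and 22.1 in KPG1 and 13.6, 22.4 and 30.3 in KPG1_PPARaDN. Under doxycycline the groups were far apart, at -1.97 ± 0.40 with an unadjusted p of 0.000372 and an adjusted p of 0.371 by edgeR. DESeq2, which called 160 of 16527 genes there where edgeR called 5, gave an adjusted p of 0.00107. Without doxycycline Sfn measured -1.04 ± 0.39, with overlap. Gadd45a, a DNA damage response gene, was the most positive in both doxycycline comparisons, at 0.88 ± 0.34 in KP and 0.71 ± 0.34 in KPG1, the latter 0.30 without KPG1_PPARaDN replicate 1. The other extremes were Btg2, an antiproliferative gene (-0.44 ± 0.37 in KP_PPARaDN against KP and 0.17 ± 0.37 between the doxycycline groups), and the tetraspanin Cd82 (-0.81 ± 0.59 in KPG1_PPARaDN against KPG1 and 0.58 ± 0.59 in KPG1 against KP).

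Of the 11 apoptosis targets, Pmaip1 (Noxa, an activator of Bax-dependent death) varied most. It was 2.26, 0.758 and 12.001 CPM in KP, 42.2, 10.4 and 30.5 in KP_PPARaDN, 16.5, 13.7 and 1.69 in KPG1 and 3.27, 4.13 and 10.3 in KPG1_PPARaDN. Its change was 2.47 ± 1.02 in KP_PPARaDN against KP and -2.23 ± 1.01 between the doxycycline groups, with adjusted p of 0.406 and 0.513 by edgeR. It was -0.85 ± 0.98 in KPG1_PPARaDN against KPG1 and 1.08 ± 0.99 in KPG1 against KP. Pidd1, an adaptor with a death domain, was lowest in KP_PPARaDN against KP (-0.60 ± 0.50) and in KPG1 against KP (-0.58 ± 0.50), while Apaf1 of the apoptosome (0.33 ± 0.21) and the death receptor Fas (0.62 ± 0.42) were highest in the comparisons that hold KPG1_PPARaDN.

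Of the 15 targets of repair and metabolism, Ak1 (adenylate kinase) was 80.6, 95.7 and 74.7 CPM in KP and 37.9, 23.4 and 34.6 in KP_PPARaDN. Its change was -1.39 ± 0.39, with an unadjusted p of 0.00452 and an adjusted p of 0.305 by edgeR. DESeq2, which called 372 of 16527 genes there where edgeR called 1, gave an adjusted p of 0.0456. Between the doxycycline groups Ak1 was the most positive, at 1.09 ± 0.39 with overlap. Ephx1, an epoxide hydrolase, was the most negative in both comparisons that hold KPG1_PPARaDN, at -1.55 ± 0.59 in each. The remaining extremes were Gdf15, a secreted stress signal (0.74 ± 0.56 in KP_PPARaDN against KP), the glutaminase Gls2 (0.93 ± 0.71 in KPG1_PPARaDN against KPG1 and -1.16 ± 0.71 in KPG1 against KP) and the lipase Abhd4 (0.44 ± 0.27 in KPG1 against KP).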

How the data were processed

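RNA of the CD45-negative fraction of 12 tumors was sequenced single-end with a stranded poly-A kit. After trimming (cutadapt) and HISAT2 alignment to mm10, the authors deposited raw counts per gene for each tumor and as a combined table, which agree. The submitters' processing notes name bcl2fastq 2.17, cutadapt 1.4.2 and featureCounts 1.4.4, and the annotation is not given in the sources used here. The deposited log2 table was not used. Total counts were 25263794 to 32654223 per tumor, so depth limits only the lowest genes.

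Groups, sex and replicate numbers come from the labels, and mice from a number in them. Counts were tested with edgeR 4.0.16 under R 4.3.3 (TMM, filterByExpr by group, quasi-likelihood test, all 12 tumors fitted together, 8 residual df, Benjamini-Hochberg over 16527 genes, threshold 0.05), which was also tested on simulated data. SE is the size of the log2 fold change over √F. Intervals use the degrees of freedom of that test (11.41). CPM uses TMM factors (0.890 to 1.065). Correlations used 100000 permutations, or all orders within groups. Positions are from GENCODE M21 (mm10) and promoters from RefSeq.

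The genes and lists were chosen with earlier results of these data known. Beyond the 10 genes, the text names in each comparison the most positive and the most negative gene of each p53 or Ink4 list with a mean of at least 1 CPM, any list gene called, and the 5 genes most like Trp53. Of 111 list genes, 108 matched by symbol and 3 by gene ID. Alternatives were DESeq2 1.42.0, limma 3.58.1 voom, other size factors and filters, the compared groups alone, sex, a replicate block, tumors of a mouse summed and leaving out each tumor. Averages over genotypes or diets, list sums and within-group correlations were added after seeing the data. Same-numbered tumors of different groups deviated with correlations of -0.19 to 0.127, so numbers do not pair them. The name of the oncogene allele shared by all groups is not reported here.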

Additional observations from a re-analysis of the deposited data

How the results depend on the processing

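No log2 fold change of the 10 genes passed an adjusted p of 0.05 under any setting tried, and the smallest adjusted p among 1312 values was 0.297 (Cdkn1a without KP replicate 1). The count of all genes called depended on the method: DESeq2 called 372 genes in KP_PPARaDN against KP, 197 in KPG1_PPARaDN against KPG1, 53 in KPG1 against KP, 160 in KPG1_PPARaDN against KP_PPARaDN, 286 for the difference of diet effects, 286 averaged over genotypes and 39 over diets, where edgeR called 1, 1, 6, 5, 0, 3 and 8. In KP_PPARaDN against KP the count was 0 with the compared groups alone, tumors of a mouse summed, sex or the replicate block, and 2 without a filter. In KPG1_PPARaDN against KPG1 it was 0 with the compared groups alone, tumors of a mouse summed or limma voom, and 2 with the replicate block. In KPG1 against KP it was 10 with the compared groups alone, and 2 with sex or tumors of a mouse summed. In KPG1_PPARaDN against KP_PPARaDN it was 2 with sex or tumors of a mouse summed, and 3 with the replicate block. Averaged over genotypes it was 5 without a filter. Averaged over diets, it was 4 with a mean of at least 20 TPM, 5 with the replicate block and 3 with tumors of a mouse summed. Leaving out 1 tumor gave 0 to 1, 0 to 2, 2 to 3 and 2 to 4 genes in the 4 comparisons, 2 to 13 averaged over genotypes and 6 to 11 over diets, and 0 to 1 pair of Trp53 with another gene. The cause of these changes was not tested.

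Some signs turned, all for values that were not called, and no value of the 10 genes was called under any setting. The change of Trp53 in KP_PPARaDN against KP was -0.018 with limma voom, -0.13 with sex and -0.0028 with tumors of a mouse summed, and in KPG1_PPARaDN against KPG1 it was 0.0096 with sex, where Ccng1 was 0.14. In KPG1 against KP, Cdkn1a was -0.0071 with upper-quartile scaling and -0.036 with the TPM minimum, and Cdkn2a was -0.39 with limma voom, -0.032 with upper-quartile scaling, -0.053 with the TPM minimum and -0.043 with the replicate block. With sex, Ccng1 was -0.13, Eda2r 0.18, Bax 0.11 and Cd82 -0.25 there. In KPG1_PPARaDN against KP_PPARaDN, Trp53inp1 was 0.037 with limma voom, 0.0034 with upper-quartile scaling, 0.12 with sex, 0.016 with the replicate block and 0.014 with tumors of a mouse summed. The r of Trp53 was 0.0397 with Bax without TMM factors and -0.114 with Mdm2 with tumors of a mouse summed. Leaving out 1 tumor turned signs in KP_PPARaDN against KP, Bax -0.086 to 0.26, Ccng1 -0.016 to 0.48, Cdkn1a -0.20 to 0.86, Phlda3 -0.088 to 0.25, Pidd1 -0.96 to 0.32, Trp53 -0.40 to 0.31, Trp53inp1 -0.071 to 0.50, and in KPG1_PPARaDN against KPG1, Ccng1 -0.18 to 0.085, Cdkn1a -0.36 to 0.030, Cdkn2a -0.11 to 0.81, Phlda3 -0.046 to 0.65, Zmat3 -0.01 to 0.19, and in KPG1 against KP, Bax -0.24 to 0.11, Ccng1 -0.076 to 0.41, Cdkn1a -0.36 to 0.70, Cdkn1c -0.21 to 1.14, Cdkn2a -0.44 to 0.48, Eda2r -0.79 to 0.43, Mdm2 -0.20 to 0.034, Pidd1 -0.95 to 0.34, Trp53 -0.24 to 0.11, Trp53inp1 -0.51 to 0.15, and in KPG1_PPARaDN against KP_PPARaDN, Btg2 -0.096 to 0.36, Ccng1 -0.24 to 0.030, Cdkn2a -0.47 to 0.21, Trp53 -0.54 to 0.17, Trp53inp1 -0.21 to 0.37, Zmat3 -0.20 to 0.10. For r with Trp53 the ranges that turned were Bax -0.448 to 0.178, Eda2r -0.0568 to 0.203, Mdm2 -0.0571 to 0.271. The replicate block gave no call among the 10 genes, and there was none without it.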

Other observations

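Of the 11 genes of the Ink4 and Rb axis, which control entry into S phase next to Cdkn2a, none was called by edgeR in a comparison of 2 groups. Cdk6, the kinase that p16Ink4a inhibits, was 3.25, 3.61 and 5.64 CPM in KP and 10.9, 19.7 and 12.9 in KP_PPARaDN, at 1.80 ± 0.64 on the log2 scale with an adjusted p of 0.351 by edgeR. Ccnd2 (cyclin D2) was 74.9, 16.4 and 17.1 CPM in KP, 6.76, 4.27 and 6.94 in KPG1 and 26.4, 32.96 and 18.4 in KPG1_PPARaDN. That is -2.59 ± 0.82 in KPG1 against KP and 2.11 ± 0.80 in KPG1_PPARaDN against KPG1, with adjusted p of 0.785 and 0.422 by edgeR. Without KP replicate 1 the former was -1.48. Between the doxycycline groups Ccnd2 was at -1.57 ± 0.78, and at -0.71 without KP_PPARaDN replicate 2. Ccnd1 (cyclin D1) was the most negative in KPG1_PPARaDN against KPG1, at -0.92 ± 0.39. Cdkn1c (p57) reached 223 CPM in KPG1_PPARaDN replicate 1 and was 21.9 and 27.0 CPM in the others, which gave 2.85 ± 0.86 against KP_PPARaDN and 0.96 without that tumor, and it was at -0.92 ± 0.82 in KP_PPARaDN against KP and 0.78 ± 0.81 in KPG1 against KP.

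The 13 proliferation genes had medians between 0.07 and 0.15 in the 4 comparisons, and none had an unadjusted p below 0.05. Their summed CPM had group medians of 468 in KP, 498 in KP_PPARaDN, 369 in KPG1 and 398 in KPG1_PPARaDN, and single tumors ran from 192 (KP_PPARaDN) to 604 (KPG1). Of all listed genes, the erythroid marker Hba-a2 was the only one called by edgeR. It was 0.24, 0.103 and 0.528 CPM in KPG1 and 13.1 to 122 CPM in the tumors of the other groups. The other 4 of the 5 erythroid markers were above 0 in KPG1 against KP, and the list median was 0.38. The summed CPM of the 5 markers was 629 to 961 in KPG1 and 319 to 764 in KP. Epithelial, endothelial, fibroblast and leukocyte markers held no called gene by edgeR. In KP_PPARaDN against KP, the 6 fibroblast markers were all above 0 with a median of 1.17, and in KPG1_PPARaDN against KP_PPARaDN all 6 were below 0 with a median of -1.25. Their part in the values of the p53 genes was not tested.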
